A study of Homo sapiens with 6 samples.

Results

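The genes described here drive or mark the passage of cells through DNA replication, G2 and mitosis. They are 38 genes picked by name from the 19402 genes of the count table. Of these, 10 act at the G1/S boundary or in DNA synthesis and 28 act in G2 or mitosis. Genes that license replication origins were kept out of the set. All 38 passed the filter on low counts, as did 13388 genes in all.

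The data are 6 poly(A) RNA-seq libraries, in 2 groups of 3, of the CFPAC1 line, which derives from a human pancreatic ductal adenocarcinoma. The WT group comprised 3 pools of clonal lines that were isolated by dilution after infection with the lentiCRIPSv2 plasmid (the spelling of the labels). The group labelled IRF1-KO comprised 3 pools of clonal lines isolated in the same way after infection with that plasmid carrying wild-type Cas9 and a guide RNA against IRF1. All lines were kept in IMDM with fetal bovine serum, and neither group is labelled with any further agent. A pool mixes several clones, so a value is an average over clones that each grew from a single cell. The labels do not say whether the pools were grown or processed on separate occasions, so every p-value measures only the spread between these pools.

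Entry into S phase is driven by E2F transcription factors, which are released from the retinoblastoma protein and switch on cyclin E and the enzymes that make DNA and its building blocks. Later in the cycle, CDK1 with cyclins A and B is held inactive by the kinases WEE1 and PKMYT1 until CDC25 phosphatases release it, and the mitotic kinases, the spindle and the anaphase-promoting complex then carry out division. S-phase promoters commonly carry E2F sites, whereas mitotic promoters commonly carry a CHR element (cell cycle genes homology region) close to CCAAT boxes. The CHR element is bound by the DREAM and B-MYB complexes, and CCAAT boxes are bound by NF-Y. IRF1, the gene that the guide targets, is an interferon-induced transcription factor that has also been studied as a growth-restraining factor. Bulk RNA does not separate fewer cells in a phase from less RNA per cell, so these cannot be told apart here.

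RefSeq promoter windows, 250 bases before to 50 bases after an annotated start, were at hand for 31 of the 38 genes. There were none for CCNE2, PKMYT1, WEE1, AURKA, BIRC5, UBE2C and TPX2. The windows were searched on both strands for E2F sites, the CHR element with the letters TTTGAA, the CCAAT box with the letters in its name, and the IRF consensus AANNGAAA. An E2F site was counted where the window held TTCCCGC in one form, TTCGCGC in another form, TTGCCGC in a further form, or the last form TTGGCGC. The last of these forms reads GCGCCAA on the opposite strand and can there share bases with a CCAAT box. The E2F site was found in 8 of 9 S-phase genes and 6 of 22 G2 and mitosis genes, against 15.3% of all 27305 genes with a window. The CHR element was found in 1 of 9 S-phase genes (RRM1) and 15 of 22 G2 and mitosis genes, against 18.2% of all genes. CCAAT boxes were found in 7 of 9 and 20 of 22, against 39.7%. Both a CHR element and a CCAAT box were found in 14 of 22 G2 and mitosis genes, 1 of 9 S-phase genes and 8.37% of all genes. A gene with more than 1 window was counted over all of its windows, so the letters need not share a window. The IRF consensus was found in 0 of 9 S-phase genes and 8 of 22 G2 and mitosis genes (AURKB, BUB1, CCNA2, CDC25C, CDK1, KIF23, MKI67 and NUSAP1), against 26.7% of all genes. A match describes letters only and is no evidence of binding.

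The 150 bases before the start of 3 genes of each kind are given as examples of layout. The genes were chosen after their motifs were seen, so the examples do not measure how common a layout is. The bases are written 5′ to 3′ on the gene's strand from RefSeq on GRCh38.p14, with matches to the E2F, CHR and CCAAT letters on either strand in capitals. E2F1 (chr20:33686386-33686535, minus strand), CDC25A (chr3:48188418-48188567, minus strand) and GINS2 (chr16:85688955-85689104, minus strand) carry E2F letters near the start. CCNB2 (chr15:59104996-59105145, plus strand), PLK1 (chr16:23678739-23678888, plus strand) and PRC1 (chr15:90994536-90994685, minus strand) carry CCAAT boxes followed by TTTGAA.
E2F1: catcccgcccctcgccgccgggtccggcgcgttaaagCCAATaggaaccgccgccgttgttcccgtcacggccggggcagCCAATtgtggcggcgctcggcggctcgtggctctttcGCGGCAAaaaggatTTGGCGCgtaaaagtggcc
CDC25A: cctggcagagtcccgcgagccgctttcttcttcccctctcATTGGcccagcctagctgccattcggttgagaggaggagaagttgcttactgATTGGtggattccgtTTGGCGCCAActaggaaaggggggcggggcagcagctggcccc
GINS2: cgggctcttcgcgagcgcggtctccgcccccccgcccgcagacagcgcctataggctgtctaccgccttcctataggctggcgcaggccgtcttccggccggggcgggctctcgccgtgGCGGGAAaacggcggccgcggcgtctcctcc
CCNB2: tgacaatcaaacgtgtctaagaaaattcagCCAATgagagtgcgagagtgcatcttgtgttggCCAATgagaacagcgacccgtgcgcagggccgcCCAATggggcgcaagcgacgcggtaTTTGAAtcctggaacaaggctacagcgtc
PLK1: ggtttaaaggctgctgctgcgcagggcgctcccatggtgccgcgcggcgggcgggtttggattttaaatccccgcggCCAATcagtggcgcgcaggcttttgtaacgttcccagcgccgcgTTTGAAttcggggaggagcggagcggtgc
PRC1: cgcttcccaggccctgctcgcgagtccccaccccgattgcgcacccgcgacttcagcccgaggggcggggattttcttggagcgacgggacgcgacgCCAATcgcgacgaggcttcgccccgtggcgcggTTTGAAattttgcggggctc

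Total counts lay between 16413682 and 28258075 per library, and the lowest count of any of the 38 genes in any library was 174. The IRF1 transcript does not check the labels: IRF1 had 87.3, 91.3 and 82.6 CPM (counts scaled to a common library size) in the WT pools and 117, 123 and 132 CPM in the pools labelled IRF1-KO, so it was not lower in the latter (log2 fold change 0.51 ± 0.10 SE, adjusted p = 0.135 in edgeR). DESeq2 called IRF1 higher in the pools labelled IRF1-KO (log2 fold change 0.52, adjusted p = 0.00105). Directions below are therefore those of the labels. Of 10 ductal epithelial markers, 9 exceeded 1 CPM in all 6 libraries, and the list summed to between 4556 and 7681 CPM in WT and between 5151 and 7070 CPM in IRF1-KO. The 8 fibroblast markers summed to at most 76.6 CPM, mostly COL1A1, and the 6 endothelial markers to at most 8.35 CPM. The 7 leukocyte markers summed to at most 213 CPM, mostly CD68.

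None of the 38 genes passed the test between the groups. Most fitted values lay slightly above 0, and S-phase genes lay further above 0 than mitotic genes. The size of that tilt changed with the pool that was left out. It was gone without 1 WT pool in which most of the genes were low. That pool was picked out by these same genes, so leaving it out had to shrink the tilt. PKMYT1, an inhibitory kinase of CDK1, stood apart from the other 37 genes, at about 2 times its WT level in every IRF1-KO pool. In the main fit it narrowly missed the threshold. It passed in 4 of 15 alternatives, over which its log2 fold change ranged from 0.62 to 1.20.

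In edgeR's quasi-likelihood test, with Benjamini-Hochberg adjustment over all 13388 genes, 0 of 38 genes were higher at an adjusted p under 0.05, against 0.0149% of all tested genes. Likewise 0 of 38 were lower, against 0.112% of all tested genes. At an unadjusted p under 0.05, 2 of 38 were higher (PKMYT1 and PLK1), against 5.39% of all tested genes, and 0 were lower, against 3.75%. DESeq2 called 1 of 38 higher (PKMYT1), against 1.52% of all tested genes, and limma-voom called 0. The groups did not overlap, with IRF1-KO higher, for 2 of 38 genes (PKMYT1 and TK1), against 8.03% of all tested genes, and with IRF1-KO lower for 0, against 6.75%. The shares for these genes are thus close to or below those of all tested genes, apart from the DESeq2 share, which rests on PKMYT1 alone.

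**Figure D1:**
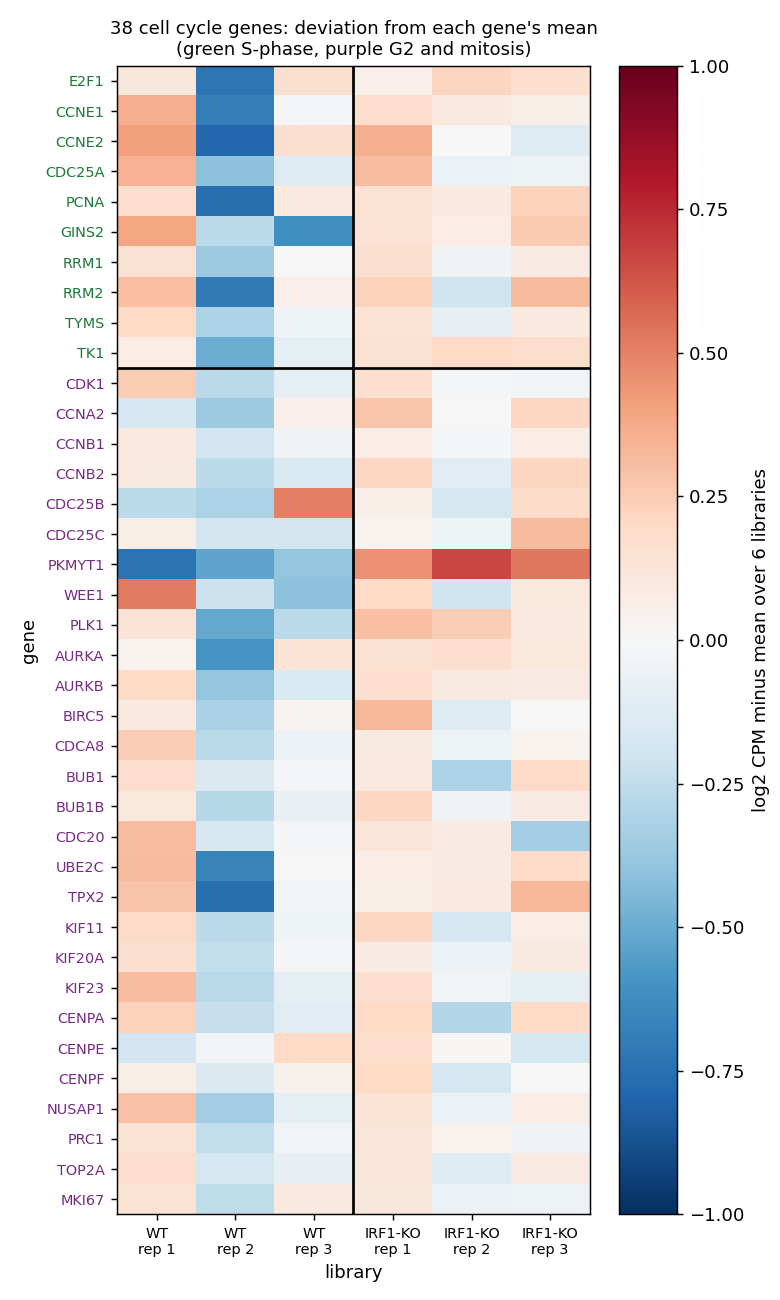
Deviation of log2 CPM from each gene's mean over the 6 libraries, for the 38 genes in rows (S-phase in green, G2 and mitosis in purple) and the libraries in columns. WT replicate 2 was the lowest library for 30 of the 38 genes, and PKMYT1 was low in all WT and high in all IRF1-KO libraries.

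WT replicate 2 had the lowest level of the 6 libraries for 30 of 38 genes (9 of 10 in S phase and 21 of 28 in G2 and mitosis). Over all tested genes it was the lowest for 18.0%. It lay below all 3 IRF1-KO pools for 33 of 38 genes, against 3960 of all 13388 tested genes. WT replicate 1 did so for 6 of 38, against 3693 of 13388. WT replicate 3 did so for 18 of 38, against 3589 of 13388, so its share was also above that of all tested genes. WT replicate 1 was the highest of the 6 libraries for 19 of 38 genes, against 2260 of 13388 tested genes. For those 19 genes a WT pool thus lay above all IRF1-KO pools. In its mean over the S-phase genes, given below, WT replicate 1 lay above every IRF1-KO pool. In its mean over the G2 and mitosis genes it lay within the range of the IRF1-KO pools. As a percentage of the mean of the other WT pools, WT replicate 2 had a median of 61.8% for S-phase genes (range 47.4% to 85.0%) and 79.7% for G2 and mitosis genes (range 54.1% to 102%). Its total count, 18394715, was close to the 18642377 of WT replicate 1. As this library stands apart, the fold change of each of the 38 genes is also given without it. The library was picked out by these same genes, so leaving it out had to lower most of the values.

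The G1/S regulators turn on the replication programme, and they were the class in which WT replicate 2 was farthest below the rest. E2F1 (GRCh38 chromosome 20, 33675477 to 33686385, minus strand), the transcription factor whose promoter is printed above, had 70.3, 39.3 and 72.6 CPM across the WT pools, against 67.2, 75.4 and 72.9 CPM across the IRF1-KO pools. Only WT replicate 2 was low, and the other WT values lay among those of IRF1-KO. The log2 fold change of E2F1 was 0.24 ± 0.22 (SE), and it was 0.01 without WT replicate 2. After a correction for the GC content of transcripts, which is 62.5% for E2F1, it was 0.02. CCNE2, a cyclin that activates CDK2, had 21.7, 9.46 and 18.3 CPM across the WT pools, against 20.9, 16.3 and 14.9 CPM across the IRF1-KO pools. The highest and the lowest value of CCNE2 were thus both WT pools, and its log2 fold change of 0.07 ± 0.30 was the smallest of the class. It was −0.20 without WT replicate 2. The other E-type cyclin, CCNE1, had a log2 fold change of 0.16, and CDC25A, the phosphatase that activates CDK2 complexes, had 0.10. When WT replicate 2 was left out, these were −0.08 for CCNE1 and −0.06 for CDC25A.

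Among the DNA synthesis genes, TK1, the thymidine salvage kinase of S phase, had 114, 77.4 and 102 CPM across the WT pools, against 121, 125 and 123 CPM across the IRF1-KO pools. All IRF1-KO pools lay above all WT pools, but WT replicate 1 fell short of the lowest of them by less than the spread among WT pools. The log2 fold change of TK1 was 0.33 ± 0.15 (SE; adjusted p = 0.574 in edgeR), the highest of the S-phase genes. It was 0.18 without WT replicate 2 and 0.08 after a correction for the GC content of transcripts, which is 62.8% for TK1. PCNA, the sliding clamp of DNA polymerases, had the highest level per length of all 38 genes, at a mean of 208 CPM per kb of exon over the 6 libraries. PCNA had 322, 169 and 304 CPM across the WT pools, against 315, 305 and 335 CPM across the IRF1-KO pools, so that WT replicate 2 alone stood apart. Its log2 fold change was 0.26 ± 0.23, or 0.02 without WT replicate 2. TYMS, which makes thymidylate, had the smallest log2 fold change of the class, 0.09 ± 0.16. TYMS had 27.1, 19.0 and 22.9 CPM across the WT pools, against 26.2, 22.3 and 25.2 CPM across the IRF1-KO pools, and the groups overlapped. GINS2, a subunit of the replicative helicase, had a log2 fold change of 0.26, and it was lowest in WT replicate 3, the exception among the S-phase genes. The value for GINS2 was 0.61 without WT replicate 1, 0.19 without WT replicate 2 and 0.08 without WT replicate 3. The ribonucleotide reductase subunits RRM1 and RRM2, which supply deoxynucleotides, had 0.12 and 0.19. Leaving out WT replicate 2 gave log2 fold changes of −0.03 for TYMS, −0.01 for RRM1 and −0.05 for RRM2.

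In the class of CDK1, its cyclins and its direct regulators, PKMYT1 differed from its neighbours in function. PKMYT1 (GRCh38 chromosome 16, 2968024 to 2980479, minus strand) encodes a membrane-bound kinase that places inhibitory phosphates on CDK1. It had 11.1, 12.9 and 14.1 CPM across the WT pools, against 25.4, 29.5 and 26.7 CPM across the IRF1-KO pools. Every IRF1-KO pool was far above every WT pool, the group means being 12.7 ± 1.52 and 27.2 ± 2.08 CPM (SD, n = 3 each). The fold was 2.14 (95% interval 1.70 to 2.70) and the log2 fold change 1.10 ± 0.14 (SE), with an adjusted p of 0.0542 in edgeR's quasi-likelihood test. Low levels were not confined to WT replicate 2, which was at 102% of the mean of the other WT pools, and the log2 fold change was 1.11 without it.

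The call on PKMYT1 depended on how the data were handled. It passed in 4 of 15 alternatives: DESeq2 (adjusted p = 2.1e-07), no filter on low counts (0.0295), a stricter filter (0.0434) and the fit without WT replicate 3 (0.0409). In the last 3 of these, the share of all tested genes called higher was 0.0289%, 0.0363% and 0.407%. Over the 15 alternatives its log2 fold change ranged from 0.62 to 1.20 and its adjusted p from 2.1e-07 to 0.293. The lowest value, 0.62 ± 0.12 (SE), came with the GC correction (unadjusted p = 0.0012, adjusted p = 0.194 in edgeR). It was still the largest value of the 38 genes in that fit. Its transcript has 66.2% GC, and tested genes above 65% GC, 477 in number, had a median of 0.52 on the same scale, which the correction brought to −0.00. The median deviation of log2 CPM of these 477 genes was −0.59, −0.13 and −0.10 in the WT pools and 0.10, 0.46 and 0.31 in the IRF1-KO pools. By that median, GC-rich genes at large also lay higher in every IRF1-KO pool than in any WT pool. Whether GC content underlies the difference in PKMYT1 was not tested. The transcripts of WEE1, CDC25B and CDC25C have 40.8%, 59.3% and 46.5% GC. The exons of PKMYT1 also overlap those of PAQR4 (24.8% of its exon bases) and KREMEN2 (7.24%), both on the opposite strand. The strand setting of the counting is not given in the sources used here, so reads from such overlaps cannot be told apart. The neighbour PAQR4 itself had a log2 fold change of 0.14 ± 0.15, and KREMEN2 was below 0.6 CPM in every library.

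**Figure D2:**
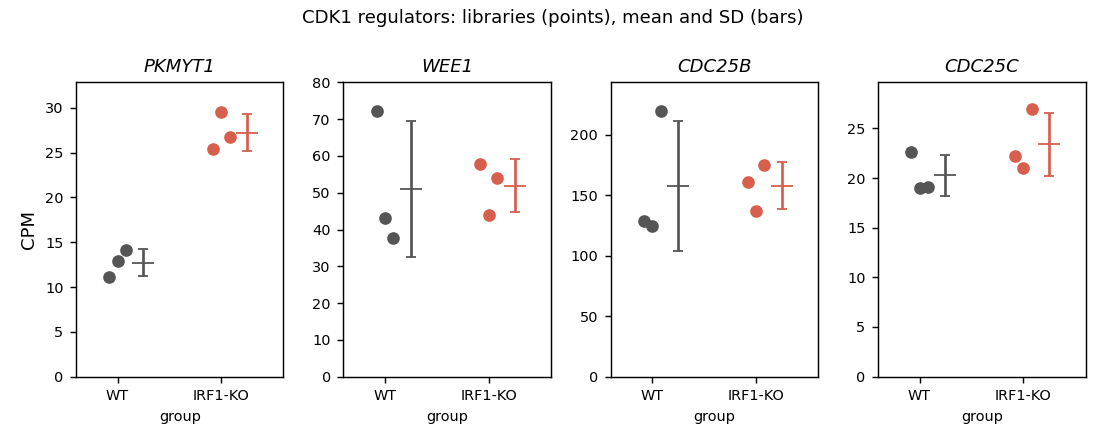
CPM in each library (points) with group mean and SD (bars) for the kinases PKMYT1 and WEE1, which inhibit CDK1, and the phosphatases CDC25B and CDC25C, which activate it, with each axis starting at 0. PKMYT1 separates the groups, whereas the WT and IRF1-KO points of WEE1, CDC25B and CDC25C overlap. PKMYT1 has the most GC-rich transcript of these genes, and the median of GC-rich genes at large also separates the groups. Whether GC content underlies the separation of PKMYT1 was not tested.

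The other regulators of CDK1 did not show this separation. WEE1, the nuclear kinase that places an inhibitory phosphate on CDK1, had a log2 fold change of 0.02 ± 0.25, with its highest and lowest values both in WT pools. CDC25B, a phosphatase that starts CDK1 activation, had 129, 124 and 220 CPM across the WT pools, against 161, 137 and 175 CPM across the IRF1-KO pools. WT replicate 3 was high and the IRF1-KO pools lay between the WT pools, giving a log2 fold change of 0.00 ± 0.23. CDC25C, the related phosphatase, had 0.21. CCNA2, the cyclin that acts in both S phase and G2, had 0.32 ± 0.14 (unadjusted p = 0.052, adjusted p = 0.553 in edgeR), or 0.22 without WT replicate 2. CDK1 itself had 0.06, and the mitotic cyclins CCNB1 and CCNB2 had 0.08 and 0.21. The fit without WT replicate 2 gave −0.08 for WEE1, −0.14 for CDC25B, 0.16 for CDC25C, −0.05 for CDK1, 0.01 for CCNB1 and 0.14 for CCNB2.

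Among mitotic kinases, checkpoint genes and the anaphase-promoting complex, fitted differences were small and of both signs. PLK1, the kinase that promotes mitotic entry and centrosome maturation, had 119, 75.8 and 89.5 CPM across the WT pools, against 133, 128 and 116 CPM across the IRF1-KO pools. WT replicate 1 lay above the lowest IRF1-KO pool, so the groups overlapped. The log2 fold change of PLK1 was 0.41 ± 0.17 (unadjusted p = 0.045, adjusted p = 0.531 in edgeR), and it was 0.27 without WT replicate 2 and 0.62 without WT replicate 1. CDC20, which activates the anaphase-promoting complex, had 186, 135 and 149 CPM across the WT pools, against 163, 159 and 119 CPM across the IRF1-KO pools. Its log2 fold change of −0.09 ± 0.17 was the lowest of the 38, and the groups overlapped. UBE2C, the ubiquitin-conjugating enzyme of that complex, had 0.18. The aurora kinases AURKA, which acts at spindle poles, and AURKB, which acts at centromeres, had 0.25 and 0.21. Without WT replicate 2 they were 0.05 and 0.08, and the highest values with a library left out were 0.41 for AURKA (without WT replicate 3) and 0.40 for AURKB (without WT replicate 1). BIRC5 and CDCA8, which form the chromosomal passenger complex with AURKB, had 0.14 and 0.04. The spindle checkpoint genes BUB1 and BUB1B had −0.00 and 0.16. With WT replicate 2 left out, the log2 fold changes were −0.19 for CDC20, −0.05 for UBE2C, 0.02 for BIRC5, −0.08 for CDCA8, −0.07 for BUB1 and 0.06 for BUB1B. BIRC5 was as low (0.02) without IRF1-KO replicate 1.

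The spindle, kinetochore and cytokinesis genes all had log2 fold changes between 0.01 and 0.27. TPX2, which activates AURKA on spindle microtubules, had 441, 215 and 355 CPM across the WT pools, against 378, 389 and 456 CPM across the IRF1-KO pools. WT replicate 2 was at 54.1% of the mean of the other WT pools, the lowest share of the 28 G2 and mitosis genes. The log2 fold change of TPX2 was 0.27 ± 0.24, or 0.03 without that pool. CENPE, a kinetochore motor, had 112, 126 and 147 CPM across the WT pools, against 145, 129 and 113 CPM across the IRF1-KO pools. Here WT replicate 1 was the lowest and WT replicate 3 the highest library, and the log2 fold change was 0.01 ± 0.14. The kinetochore proteins CENPA and CENPF had 0.08 and 0.03. The spindle motor KIF11 had 0.07, and the cytokinesis motors KIF20A and KIF23 had 0.07 and 0.02. PRC1, which bundles midzone microtubules, had 0.07, and NUSAP1, which binds spindle microtubules, had 0.08. In the fit without WT replicate 2 the values were −0.01 for CENPE, −0.02 for CENPA, −0.04 for CENPF, −0.03 for KIF11, −0.03 for KIF20A, −0.10 for KIF23, −0.02 for PRC1 and −0.06 for NUSAP1.

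TOP2A and MKI67 are the transcripts most used to mark dividing cells, and neither separated the groups. TOP2A, the topoisomerase that untangles chromosomes, had 1272, 995 and 1059 CPM across the WT pools, against 1220, 1034 and 1190 CPM across the IRF1-KO pools. At a mean of 177 CPM per kb of exon it had the highest level per length of the G2 and mitosis genes. Its log2 fold change was 0.05 ± 0.13, or −0.02 without WT replicate 2, with a WT pool at each end of the range. MKI67, which encodes the Ki-67 antigen that coats mitotic chromosomes, had 897, 680 and 870 CPM across the WT pools, against 878, 780 and 784 CPM across the IRF1-KO pools. Its log2 fold change was −0.00 ± 0.13, and −0.12 without WT replicate 2.

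**Figure D3:**
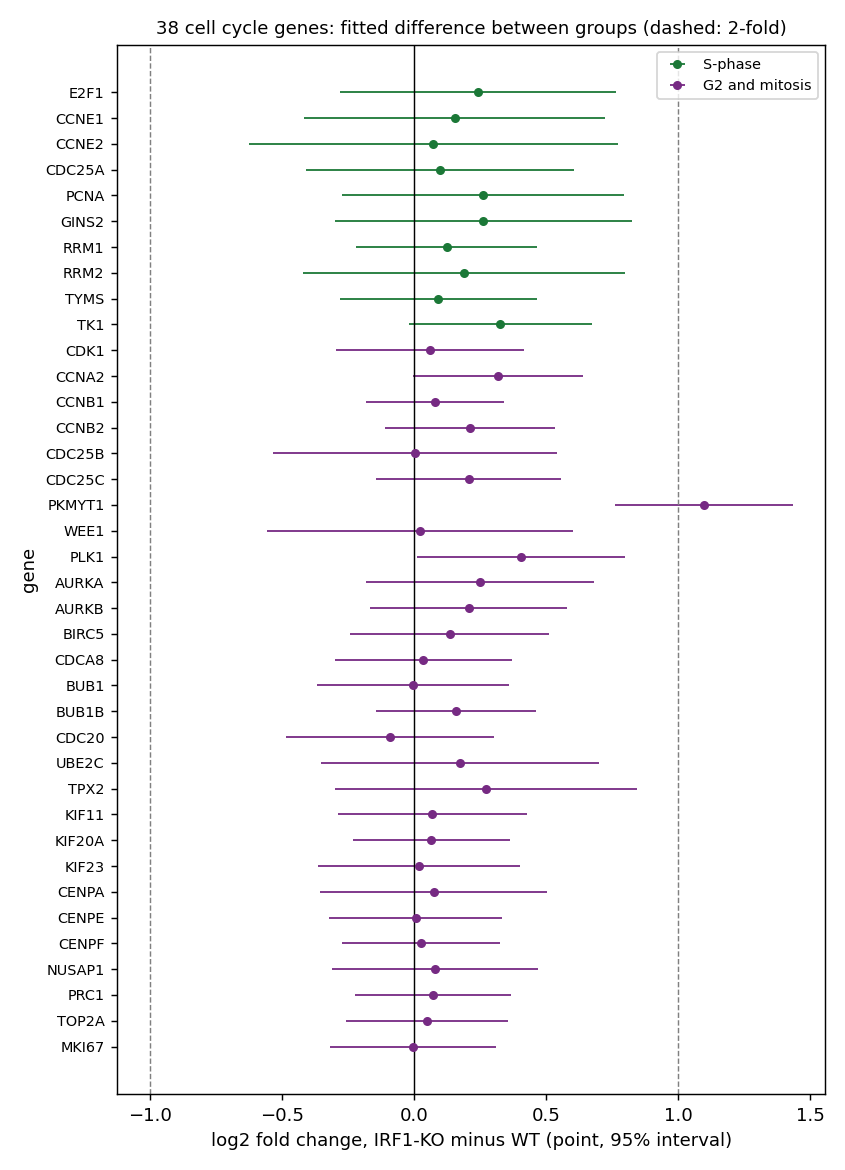
Log2 fold change of IRF1-KO against WT with its 95% interval from the edgeR fit for each of the 38 genes, S-phase genes in green and G2 and mitosis genes in purple, with dashed lines at a 2-fold change either way. All intervals but that of PKMYT1 lie within the dashed lines, and 36 of 38 include 0.

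The 95% intervals limit how large a difference these libraries leave room for. For 37 of 38 genes, all but PKMYT1, the whole interval lay within a 2-fold change either way, and for 23 of 38 within 1.5-fold. The S-phase genes had wider intervals than the mitotic genes, with 2 of 10 within 1.5-fold against 21 of 28. The median half-width was 0.53 on the log2 scale for S-phase genes and 0.36 for G2 and mitosis genes. Standard errors ranged from 0.11 (CCNB1) to 0.30 (CCNE2). Apart from PKMYT1, the smallest adjusted p was 0.531.

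S-phase genes were next set against mitotic genes. The median log2 fold change was 0.17 over the 10 S-phase genes, all of which were above 0, and 0.07 over the 28 G2 and mitosis genes, of which 25 were above 0. Over all tested genes the median was −0.02. With the GC correction the medians were 0.17 for S-phase genes and 0.12 for G2 and mitosis genes, so they lay closer together. Without WT replicate 2 both medians were −0.02, and 15 of 38 values were above 0. Without WT replicate 1, by contrast, they were 0.41 and 0.24. Without IRF1-KO replicate 1 the medians were 0.15 and 0.04, and 29 of 38 values were above 0. Single pools thus changed the size of the tilt, and no test was made of it, since the genes are not replicates.

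**Figure D4:**
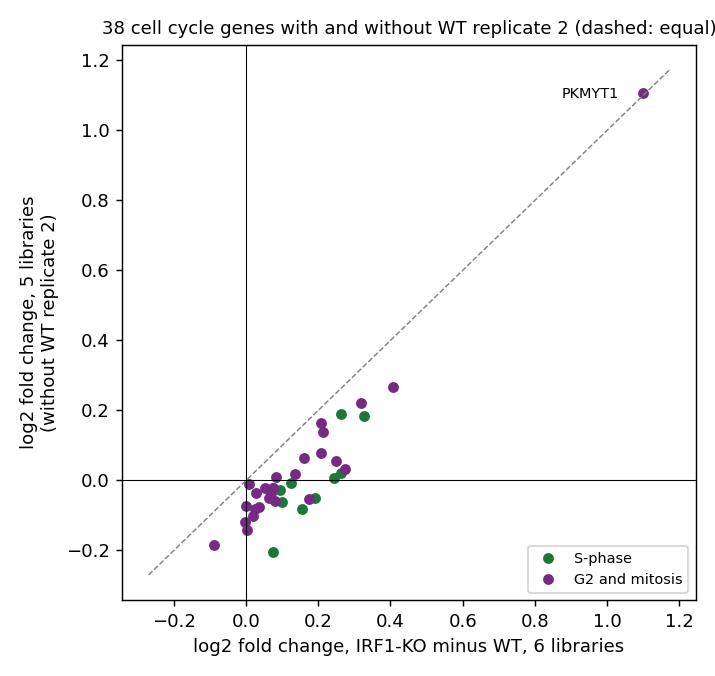
Log2 fold change of each of the 38 genes with all 6 libraries (horizontal axis) against the fit of 5 libraries without WT replicate 2 (vertical axis), with a dashed line of equal values. Nearly all points lie below the line and around 0 on the vertical axis, where 15 are above 0, and PKMYT1 stays near 1.1 on both axes.

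The same comparison can be made within each library. The mean deviation of log2 CPM from the 6-library mean was 0.25, −0.55 and −0.04 for S-phase genes in the WT pools, in the order of their numbers, and 0.19, 0.03 and 0.12 in the IRF1-KO pools. For G2 and mitosis genes it was 0.12, −0.31 and −0.05 in WT and 0.16, −0.02 and 0.09 in IRF1-KO. Both sets were thus low in WT replicate 2, the S-phase genes more so, while the IRF1-KO pools stayed within a narrow band. The SD among WT pools was 0.40 for S-phase genes and 0.21 for G2 and mitosis genes, and among IRF1-KO pools it was 0.08 and 0.09. The group difference of 0.22 for S-phase genes and 0.16 for G2 and mitosis genes was smaller than the SD among WT pools in both cases. Without WT replicate 2 the differences were 0.01 and 0.04. The G2 and mitosis mean includes PKMYT1, whose log2 fold change was 1.11 in the fit without that pool. The S-phase mean minus the mitotic mean was 0.14, −0.24 and 0.00 in WT and 0.02, 0.05 and 0.03 in IRF1-KO, so the WT values enclosed those of IRF1-KO.

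**Figure D5:**
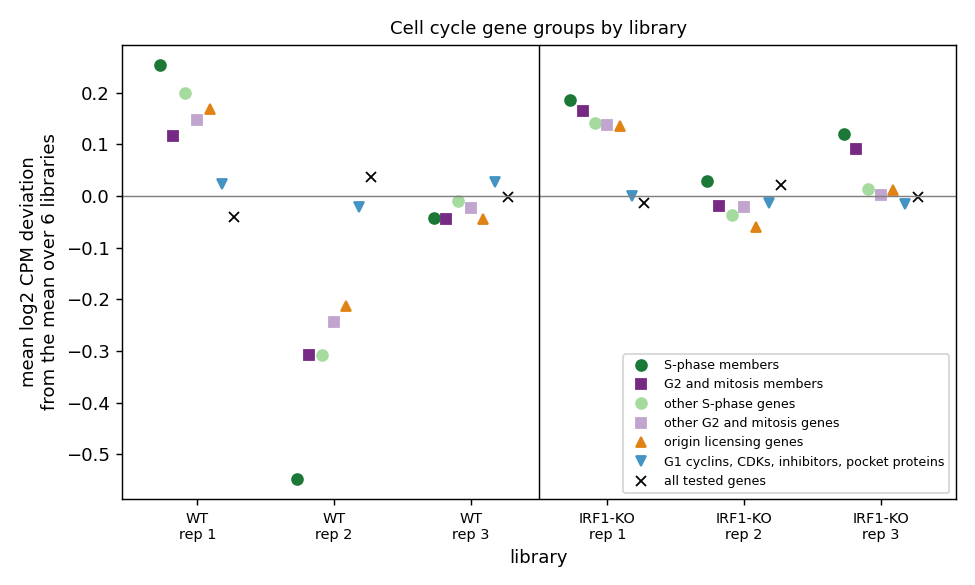
Mean deviation of log2 CPM from the 6-library mean for the S-phase genes, the G2 and mitosis genes, 4 other lists of cell cycle genes and all tested genes, in each library. In WT replicate 2 the S-phase genes lie at −0.55 and the G2 and mitosis genes at −0.31, and 3 of the other lists are low there too, whereas the G1 list and all tested genes stay near 0.

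Other genes of the same pathways showed the same library pattern. Of 57 other S-phase genes, such as DNA polymerase and replication factor subunits, 0 passed the edgeR test in either direction, their median log2 fold change was 0.06, and WT replicate 2 was the lowest library for 40. Of 70 other G2 and mitosis genes, 0 passed, the median was 0.06, and WT replicate 2 was the lowest for 49. At an unadjusted p under 0.05 in edgeR, each of these lists had 1 gene higher and 0 lower, against 5.39% and 3.75% of all tested genes. DESeq2 called 1 of the 57 other S-phase genes and 0 of the 70 other G2 and mitosis genes higher, against 1.52% of all tested genes. Of 15 origin licensing genes, 1 rose and 0 fell in the edgeR test, against 0.0149% and 0.112% of all tested genes. Their median was −0.04, and WT replicate 2 was the lowest for 9. Of 25 tested G1 cyclins, CDKs, CDK inhibitors and pocket proteins, 0 passed (0 also at an unadjusted p under 0.05), the median was 0.01, and WT replicate 2 was the lowest for 7. At 7 of 25, against 18.0% of all tested genes, the G1 list was less often lowest in WT replicate 2 than the replication and mitosis lists. Its median there was 93.6% of the mean of the other WT pools.

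The licensing gene that rose was CDT1, which loads the MCM helicase onto origins. It had 15.5, 13.9 and 12.4 CPM across the WT pools, against 29.1, 34.7 and 31.2 CPM across the IRF1-KO pools. As with PKMYT1, every IRF1-KO pool was above every WT pool, and WT replicate 2 was not the lowest. The log2 fold change of CDT1 was 1.19 ± 0.14 (SE; adjusted p = 0.0335 in edgeR), and it passed in 8 of 15 alternatives. Its transcript has 64.9% GC, close to that of PKMYT1, and with the GC correction its log2 fold change was 0.79 (adjusted p = 0.283). Without WT replicate 2 it was 1.19 (adjusted p = 0.252), and the call was also lost without IRF1-KO replicate 1, 2 or 3 (adjusted p = 0.128, 0.109 and 0.215 in edgeR).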

How the data were processed

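The deposited values are raw counts, whole numbers for each gene, and the file headers show the layout of featureCounts. The submitters' processing notes name featureCounts 0.6.1, edgeR 3.2.2 and GRCh38 (hg38). For the aligner, the annotation and the strand setting the sources used here give nothing. None of the count columns lacked a sample (0). Other cell lines and interferon treatment were not analysed here.

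The counts were fitted with edgeR 4.0.16 in R 4.3.3 (filterByExpr, TMM, robust quasi-likelihood F test, two-sided, Benjamini-Hochberg over all tested genes, threshold 0.05). Standard errors follow from the F statistic. Log2 CPM used a prior count of 2. A gene's level per kb uses its exon length in the file, and GC content comes from the longest protein-coding transcript in GENCODE 29. The fits were tested on simulated counts.

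As alternatives, the fit was repeated with upper-quartile or RLE factors, without a filter, with a stricter filter (5 CPM in 3 libraries), with DESeq2 1.42.0, limma-voom (limma 3.58.1), a replicate block, a GC correction (natural spline, 5 degrees of freedom, as an offset) with and without that block, and without each library in turn. Libraries of a group differed by chi-square values of 27.1 to 57.2 per degree of freedom, so none was a duplicate.

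The genes and lists were chosen with earlier results of these data known. Values per library are given for the largest, smallest and lowest-p gene of each class, the highest per length of each phase, and other genes past the threshold. The 6 printed promoters were chosen after their motifs were seen. CCNE2, GINS2, TYMS, CCNA2, CDC25C, PKMYT1, PLK1 and KIF20A overlap genes on the opposite strand and CENPA overlaps SLC35F6 on the same strand, so their values are uncertain to that extent.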

Additional observations from a re-analysis of the deposited data

How the results depend on the processing

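Over all genes, 17 passed the threshold. DESeq2 called 332, no filter on low counts gave 31 and the replicate block 31, and leaving out single libraries gave 3 (without IRF1-KO replicate 1) to 91 (without WT replicate 3). Of the 38 genes, DESeq2, no filter and the stricter filter each called 1, and leaving out single libraries called 0 to 1, each time PKMYT1. With the replicate block PKMYT1 had an adjusted p of 0.0743. Deviations of same-numbered pools correlated across genes at −0.02, 0.25 and 0.06, and not every pool correlated best with its own number, so the numbers were not taken to pair the pools. The block changed no call among the 38 genes. With the replicate block the adjusted p of CDT1 was 0.0743 (log2 fold change 1.19), and with GC correction and block it was 0.261 (0.82), so its call was lost in both.

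Values near 0 turned sign. BUB1 had 0.0014 with RLE factors, 0.0026 with no filter, 0.0013 with DESeq2, 0.037 with upper-quartile factors, 0.0061 with the stricter filter, 0.035 with GC correction and 0.031 with GC correction and block. MKI67 had 0.035 with upper-quartile factors, 0.00089 with no filter, 0.0038 with the stricter filter, 0.0051 with limma-voom, 0.0051 with the replicate block, 0.048 with GC correction and 0.057 with GC correction and block. CDC25B had −0.029 with GC correction. The causes were not tested.

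Leaving out single libraries moved more signs, and WT replicate 2 moved more than any other single library. Ranges of the log2 fold change were −0.082 to 0.43 for CCNE1, −0.20 to 0.34 for CCNE2, −0.061 to 0.35 for CDC25A, −0.0078 to 0.26 for RRM1, −0.051 to 0.43 for RRM2 and −0.028 to 0.25 for TYMS. For the CDK1 class they were −0.049 to 0.24 for CDK1, −0.14 to 0.34 for CDC25B and −0.13 to 0.38 for WEE1. For mitotic regulators they were −0.077 to 0.20 for CDCA8, −0.10 to 0.14 for BUB1, −0.19 to 0.072 for CDC20 and −0.054 to 0.43 for UBE2C. For spindle genes they were −0.035 to 0.21 for KIF11, −0.032 to 0.19 for KIF20A, −0.10 to 0.22 for KIF23, −0.021 to 0.24 for CENPA, −0.062 to 0.14 for CENPE, −0.048 to 0.11 for CENPF, −0.059 to 0.29 for NUSAP1 and −0.022 to 0.19 for PRC1. For the last class they were −0.022 to 0.18 for TOP2A and −0.12 to 0.089 for MKI67. The other genes kept their sign, with 0.0080 to 0.41 for E2F1, 0.022 to 0.44 for PCNA, 0.082 to 0.61 for GINS2, 0.18 to 0.47 for TK1, 0.22 to 0.45 for CCNA2, 0.0093 to 0.17 for CCNB1, 0.14 to 0.34 for CCNB2 and 0.091 to 0.32 for CDC25C. The rest had 1.03 to 1.20 for PKMYT1, 0.27 to 0.62 for PLK1, 0.055 to 0.41 for AURKA, 0.079 to 0.40 for AURKB, 0.016 to 0.24 for BIRC5, 0.065 to 0.28 for BUB1B and 0.033 to 0.53 for TPX2.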
